A study of Mus musculus with 16 samples.

Results

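The Ly49 receptors are a family of lectin-like proteins by which mouse natural killer (NK) cells, and some other leukocytes, read MHC class I molecules on the cells they meet. Inhibitory members carry a tyrosine motif in their cytoplasmic tail and recruit phosphatases that hold the NK cell back. Activating members lack that motif and signal through the adapter proteins DAP12 and DAP10, so that the balance of both types sets how readily an NK cell kills. The genes (Klra genes) lie close together in the NK gene complex on chromosome 6, and mouse strains carry different sets of them. They are so alike in sequence that a probe made for one may bind the transcripts of others.

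All spots of the array (features) whose platform annotation names Klra1, Klra2, Klra4, Klra5, Klra6, Klra7, Klra8, Klra9, Klra16 or Klra23 were taken, whatever their values, together with those named Klra22, an older name that the gene table ties to Klra1. This gave 18 features of 10 genes, out of 62976 features and 24306 named genes. Klra4, Klra8, Klra16 and Klra23 were counted as activating (7 features), and Klra1, Klra2, Klra5, Klra6, Klra7 and Klra9 as inhibitory (11 features). Features of a gene are numbered from the one with the highest mean downwards. The probe sequences were not among the data used here, so which family transcripts a feature binds could not be worked out, and every feature was read on its own.

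The study compared lungs of mice that overexpress the AP-1 transcription factor Fra-2 (gene Fosl2) with lungs of their wild-type littermates, to find what the transgene changes in the lung. Each genotype, WT and Fra-2 TG, had 4 females and 4 males of 8 weeks, each with 1 single-colour Agilent mouse array (16 in all), and TG mice carried the transgene (written Fra-2 tg/wt in the labels). The line began on a mixed BL6CBA background and was back-crossed to C57BL6/J, the alleles of the Ly49 region that these mice carry were not tested, and no source used here gives the promoter that drives the transgene. RNA came from homogenate of the snap-frozen right lung, so the values are those of the whole organ, in which fewer NK cells and less Ly49 RNA per cell cannot be told apart. Values are log2 intensities after background correction and quantile normalization, n is 8 mice per genotype, and no further treatment was given. Each array was counted as 1 mouse, although the labels name no animals. The p-values thus set the genotype difference against the spread among samples within the groups. A log2 fold change is the TG minus the WT mean with both sexes weighted equally, and a feature was called at an adjusted p under 0.05 (limma, Benjamini-Hochberg over all 62976 features).

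The brighter of the 2 Fosl2 features did not differ (log2 fold change -0.14, adjusted p = 0.751, limma). The dimmer one was higher in TG mice (log2 fold change 4.77, adjusted p = 2.87e-05, limma). It spanned 2.39 to 4.91 in WT mice and 6.56 to 10.66 in TG mice. Xist and the first Uty feature placed 16 of 16 mice on the side of their labelled sex. On the first principal component of all features, with 27.2% of the variance, TG females 1 and 4 lay at 145.8 and 128.8 and the other TG mice between 4.07 and 48.3, while WT male 1 lay at 28.3 and the other WT mice between -73.2 and -45.0. In correlation to their own group these 3 arrays stood out less, at 0.969, 0.971 and 0.977, with the other two TG females at 0.973 and 0.975. Results that rest on these 3 arrays are given with and without them. On the dimmer Fosl2 feature they were the highest of their genotypes, TG females 1 and 4 at 10.66 and 9.66 and WT male 1 at 4.91. The remaining TG mice spanned 6.56 to 8.38 on it, and the remaining WT mice 2.39 to 3.78. The array carried markers of lung epithelium near the top of its scale in both genotypes, the brightest features of Sftpc, Sftpb, Scgb1a1 and Ager having means of 15.83 to 15.98 in WT mice.

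Most Ly49 features were lower in TG than in WT lungs, and the median fall was larger for activating than for inhibitory receptors. Of the 18 features, 13 were lower and 1 was higher in TG mice, against 3.96% of all features lower and 4.85% higher, and 4 fell short of the threshold. All 7 activating features were lower, with log2 fold changes of -5.22 to -3.32 and a median of -4.31. Of the 11 inhibitory features, 6 were lower and 1 higher, with log2 fold changes of -3.49 to 3.15 and a median of -1.004. The higher one was the first Klra1 feature, for which it is in doubt that it measures Klra1. Without it, 6 of 10 inhibitory features were lower and 0 higher, with log2 fold changes of -3.49 to 1.09 and a median of -1.53. The median over all features of the array was -0.01. Activating features had WT means of 7.85 to 9.22 and inhibitory ones of 2.73 to 10.07, which left the dim inhibitory ones little room to fall. The 8 TG mice all lay below the 8 WT mice on 11 of the 18 features, on 7 of 7 activating and 4 of 11 inhibitory ones, against 0.538% of all features, and all above them on 0 of 18, against 0.756%.

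**Figure D1:**
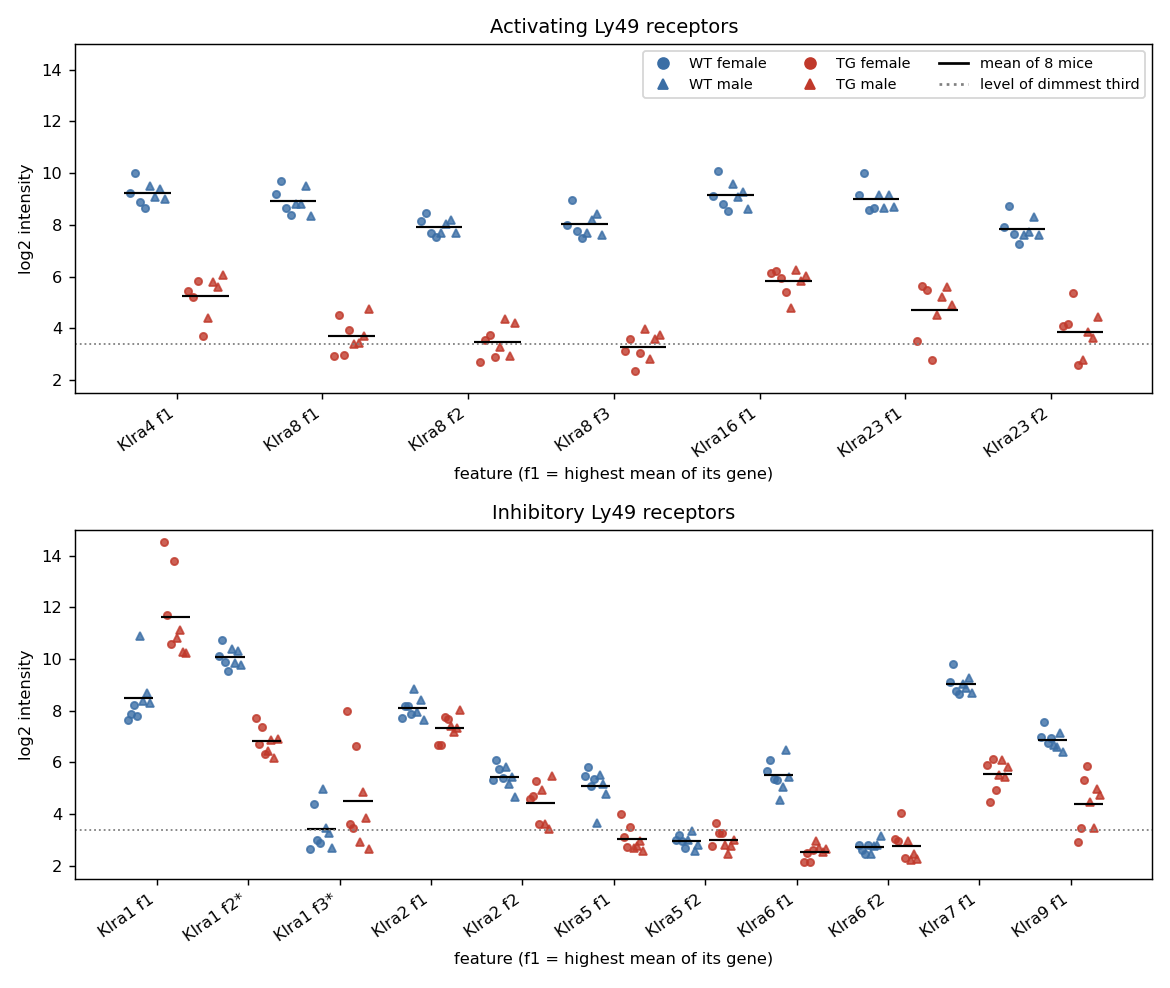
Log2 intensity of each Ly49 feature (y axis) in each of 16 mice, activating receptors above and inhibitory receptors below, with bars at the mean of 8 mice of a genotype, an asterisk for features the platform calls Klra22, and a dotted line at the mean level that bounds the dimmest 33.3% of all features (3.40). On the 7 activating features no TG mouse reaches the lowest WT mouse, while the inhibitory features include 1 that is higher in TG mice and several that start near the dotted line.

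Klra8 encodes Ly49H, the activating receptor known for binding the m157 protein of mouse cytomegalovirus. Its brightest feature ranged from 8.34 to 9.69 in WT mice, with a median of 8.81, and from 2.92 to 4.75 in TG mice, with a median of 3.56. The genotypes did not overlap, and the highest TG mouse lay 3.59 below the lowest WT mouse. The WT mean was 8.92 ± 0.50 (SD, n = 8) and the TG mean 3.69 ± 0.67 (SD, n = 8), a log2 fold change of -5.22 (SE 0.29, 95% interval -5.84 to -4.61, adjusted p = 7.95e-08, limma), or 37.4-fold. The other two features of Klra8 fell by 4.46 and 4.74 on the log2 scale (adjusted p = 6.57e-08 for each, limma), again without overlap. On the 3 features, 3, 4 and 4 of the TG mice were under 3.40, the level that bounds the dimmest 33.3% of all features, so the measured falls ended close to the lower end of the scale and may understate the change.

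Klra4 encodes Ly49D, the other activating receptor that C57BL/6 mice are known to carry. WT mice ranged from 8.65 to 10.03, with a median of 9.15, and TG mice from 3.70 to 6.06, with a median of 5.52. All TG mice lay below all WT mice, and none of them was under 3.40. The log2 fold change was -3.96 (SE 0.31, 95% interval -4.62 to -3.30, adjusted p = 3.62e-06, limma), a 15.6-fold difference.

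Klra16 (Ly49P) and Klra23 (Ly49W) are activating receptors known from other strains, and C57BL/6 mice are not known to carry them. All 3 of their features were nevertheless bright in WT lungs of this back-crossed line. Klra16 spanned 8.53 to 10.10 in WT mice and 4.79 to 6.25 in TG mice. It fell by 3.32 on the log2 scale (SE 0.25, adjusted p = 2.59e-06, limma). The first feature of Klra23 spanned 8.59 to 10.003 in WT mice and 2.78 to 5.62 in TG mice. It fell by 4.31 (SE 0.38, adjusted p = 1.11e-05, limma). The second one fell by 3.99 (SE 0.34, adjusted p = 9.69e-06, limma), and no group overlapped another on any of these 3 features. Their median log2 fold change was -3.99, beside -4.60 over the 4 features of Klra4 and Klra8. Whether these 3 features measured transcripts of Klra4, Klra8 or other family members was not tested.

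Among the inhibitory receptors, Klra7, which encodes Ly49G, had the largest fall. It ranged from 8.65 to 9.82 in WT mice, with a median of 8.97, and from 4.47 to 6.13 in TG mice, with a median of 5.66. The groups lay 2.52 apart at their nearest mice. The log2 fold change was -3.49 (SE 0.24, 95% interval -4.003 to -2.98, adjusted p = 8.89e-07, limma), or 11.3-fold, and thus within the range of the activating features.

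Klra6 (Ly49F) and Klra9 (Ly49I) also fell on a feature that separated all mice by genotype. The first Klra6 feature spanned 4.54 to 6.50 in WT mice and 2.13 to 2.96 in TG mice (log2 fold change -2.97, SE 0.23, adjusted p = 2.59e-06, limma). All 8 TG mice were under 3.40 there, in the range of the dimmest features, so that the value is a lower limit of the size of the fall. The only Klra9 feature spanned 6.41 to 7.56 in WT mice and 2.90 to 5.87 in TG mice (log2 fold change -2.48, SE 0.37, adjusted p = 0.00145, limma). TG mice spread far more than WT mice on it, with SDs of 1.04 and 0.36.

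Klra5 encodes Ly49E, which is known from fetal and newborn NK cells. Its first feature spanned 3.64 to 5.82 in WT mice and 2.56 to 3.98 in TG mice. It fell by 2.06 on the log2 scale (SE 0.24, adjusted p = 0.000235, limma). On this feature 6 of the 8 TG mice were under 3.40, so the fall may be understated. The genotypes overlapped through WT male 1 alone, at 3.64, and did not overlap without the 3 arrays that stood apart. The second features of Klra5 and Klra6 were dim in both genotypes, with WT means of 2.94 and 2.73. Their differences were 0.06 (95% interval -0.26 to 0.37, adjusted p = 0.864, limma) and 0.05 (95% interval -0.39 to 0.49, adjusted p = 0.921, limma). Both had a WT mean in the dimmest 33.3% of the array, which leaves little room for a fall to be measured.

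Klra2, which encodes Ly49B and is known from myeloid cells rather than NK cells, changed least among the features that were bright in WT lungs. The first feature ranged from 7.65 to 8.83 in WT, with a median of 8.06, and from 6.66 to 8.04 in TG mice, with a median of 7.36. The genotypes overlapped. The log2 fold change was -0.76 (SE 0.22, 95% interval -1.23 to -0.30, adjusted p = 0.0405, limma), and without the 3 arrays that stood apart it was -0.65 (adjusted p = 0.0932, limma). The second feature was at -1.004 (95% interval -1.67 to -0.34, adjusted p = 0.0583, limma). The 95% intervals of both ended well short of those of Klra7 and of all activating features.

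The 3 features of Klra1 (Ly49A) went in different directions. The first, which alone carries the platform name Klra1, was higher in TG mice, but whether it measures Klra1 transcripts is in doubt and could not be worked out without its sequence. WT mice ranged from 7.66 to 10.89, with a median of 8.27, and TG mice from 10.22 to 14.52, with a median of 10.97. The genotypes overlapped only because WT male 1, at 10.89, lay above some TG mice, and the highest TG mice were females 1 and 4, at 14.52 and 13.80, the same 3 arrays that stood apart over all features. The log2 fold change was 3.15 (SE 0.51, 95% interval 2.06 to 4.23, adjusted p = 0.00214, limma), or 8.86-fold. Without those 3 arrays it was 2.69 (adjusted p = 6.02e-05, limma), with WT mice between 7.66 and 8.67 and TG mice between 10.22 and 11.70, and thus no overlap.

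The second Klra1 feature, which the platform calls Klra22 (Ly49V, an inhibitory receptor of other strains), fell like most of the family. It ranged from 9.55 to 10.74 in WT mice, with a median of 9.99, and from 6.16 to 7.73 in TG mice, with a median of 6.80. No mouse of one genotype lay among those of the other. The log2 fold change was -3.26 (SE 0.22, adjusted p = 8.89e-07, limma), or 9.57-fold lower. The third, also called Klra22, spanned 2.66 to 4.96 in WT mice and 2.66 to 7.97 in TG mice (log2 fold change 1.09, 95% interval -0.22 to 2.40, adjusted p = 0.305, limma). Its highest values were again those of TG females 1 and 4, at 7.97 and 6.62, and of WT male 1, at 4.96 the highest of its genotype, and without these 3 arrays the difference was 0.38 (adjusted p = 0.622, limma).

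**Figure D2:**
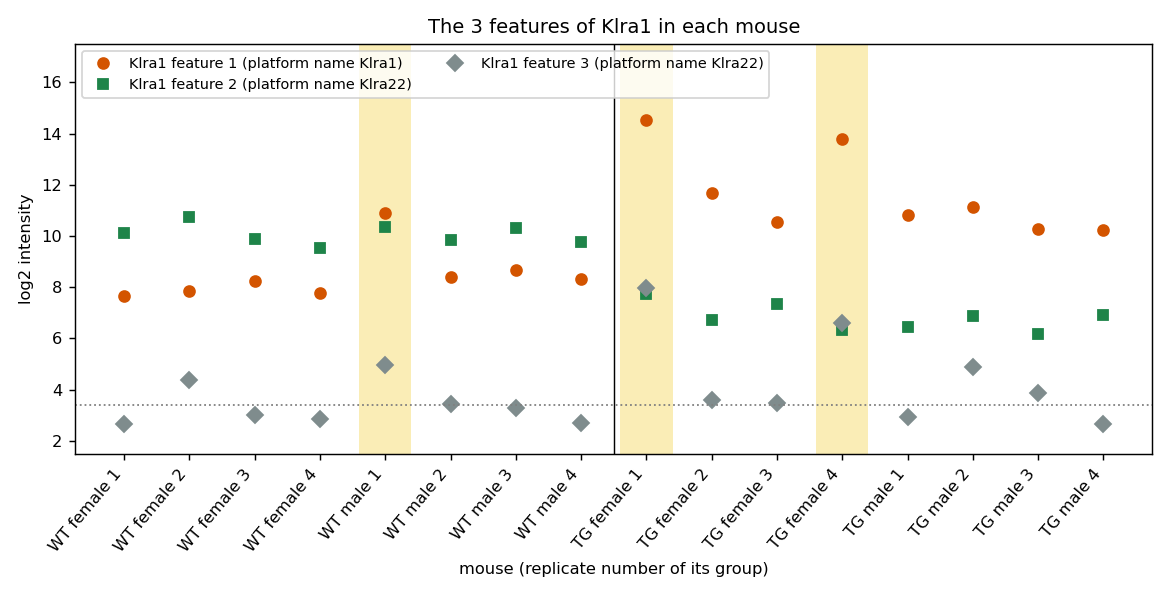
Log2 intensity (y axis) of the 3 features of Klra1 in each of 16 mice (x axis), with the 3 arrays that stood apart shaded and a dotted line at 3.40, the level that bounds the dimmest 33.3% of all features. The first feature is higher in TG mice and highest in the shaded TG females (14.52 and 13.80), the second is lower in every TG mouse, and the third is raised mainly in the shaded arrays.

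Likeness over the 16 mice was ranked among features with a gene symbol outside the Ly49 members. The features most like each Klra1 feature there came from different genes. The first correlated at r = 0.999 with Herc2, a ubiquitin ligase, and at 0.997 or above with Nudt5, the helicase gene Ddx25, Tdgf1 and Cd300lf. With the genotype means taken out, these 5 correlations were still 0.994 to 0.997. The array held 29 features with r above 0.99 to it, none of them a Ly49 feature. All 29 were higher in TG mice, with log2 fold changes of 2.47 to 3.84, and on all 29 WT male 1 lay above the other WT mice and TG females 1 and 4 were the highest TG mice. The second Klra1 feature had its nearest neighbours among genes of cytotoxic lymphocytes, namely Gzma (granzyme A, r = 0.984), Klrk1 (the receptor NKG2D, 0.979), Ncr1 (the receptor NKp46, 0.975) and Sytl3 (0.975). The brightest Klra8 feature was nearest to Klrb1c (the receptor NK1.1, 0.985), Ncr1 (0.959), Klrk1 (0.954) and Klre1 (0.954). With the genotype means taken out, the correlations were 0.58 to 0.73 for the neighbours of the second Klra1 feature. For those of Klra8 they were 0.66 and 0.13 for 2 features of Klrb1c, 0.13 for Ncr1, 0.02 for Klrk1 and -0.14 for Klre1. All are descriptions over 16 arrays. The third Klra1 feature was nearest to Malt1, at 0.946. The Ly49 members, left out of this ranking, were 5 of the 19 features with r above 0.95 to the second Klra1 feature. They were 4 of the 12 for the brightest Klra8 feature and 0 of the 317 for the first Klra1 feature.

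**Figure D3:**
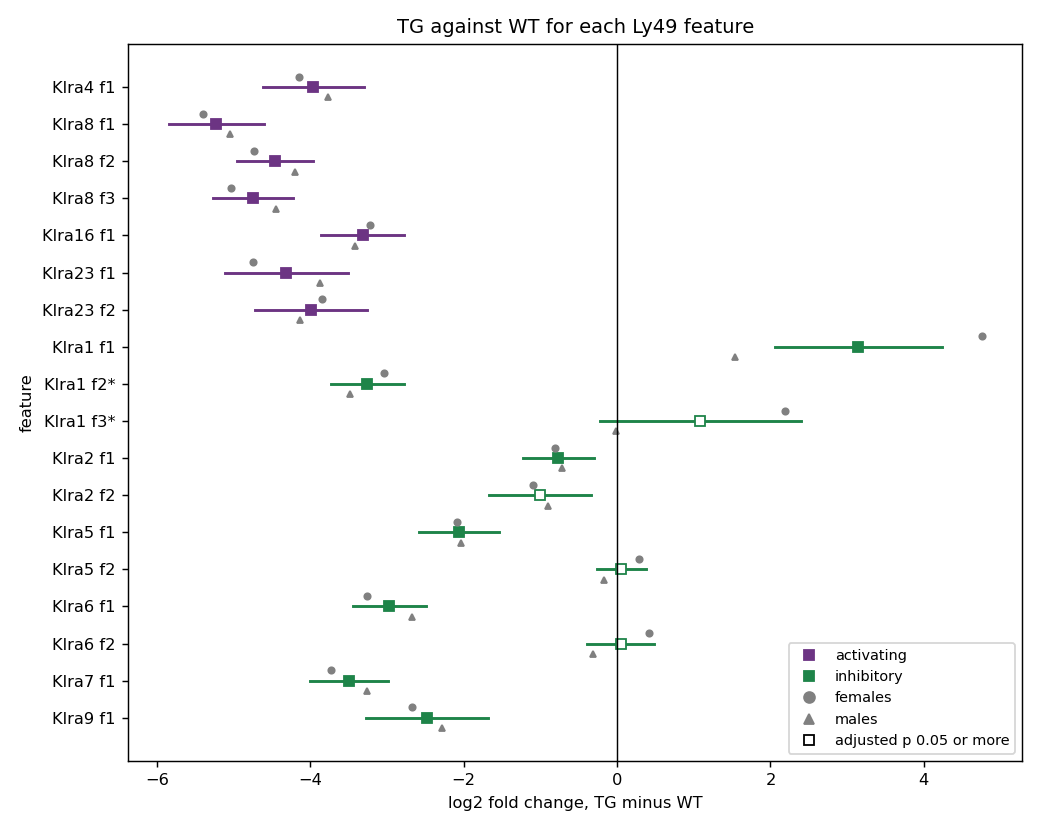
Log2 fold change of TG against WT for each Ly49 feature (x axis), squares with 95% intervals for all 16 mice, filled where the adjusted p is under 0.05, and grey circles and triangles for females and males alone. The 7 activating features lie between -5.22 and -3.32, and the inhibitory features spread from -3.49 to 3.15.

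The activating features fell in both sexes. The median log2 fold change of the activating features was -4.73 in females and -4.14 in males, and all 7 were lower in each sex, against 5.79% of all features lower in females and 0.141% in males. The median of the inhibitory features was -1.10 in females and -0.91 in males, with 5 and 4 features lower and 1 and 0 higher, against 5.67% and 0.171% of all features higher. The rise of the first Klra1 feature was 4.76 in females (adjusted p = 0.00225, limma) and 1.54 in males (adjusted p = 0.571, limma). The difference between these effects was 3.22 (95% interval 1.05 to 5.39, adjusted p = 0.390, limma), and the female group holds both TG arrays that stood apart and the male group the WT one, whose part in this difference was not tested. None of the 18 features passed the test of a difference between the sexes.

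The features differed in the room their WT level left for a fall. The activating features had WT means of 7.85 to 9.22, and the inhibitory ones of 2.73 to 10.07. Over the 8 inhibitory features with a WT mean above 5 (6 lower, 1 higher), the median log2 fold change was -2.27. That cut was set on the WT level alone, which favours features that are higher in WT mice. The 6 inhibitory features that fell, 1 for each gene, had a median of -2.72, but they were picked by their fall. No test of activating against inhibitory receptors was made, since features share transcripts and are not replicates. In each mouse, the median over the 7 activating features spanned 8.34 to 9.69 in WT mice and 3.05 to 5.36 in TG mice. The median over the 11 inhibitory features spanned 5.39 to 6.50 in WT mice and 3.62 to 5.26 in TG mice. Both medians separated the genotypes, that of the inhibitory features by far less.

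**Figure D4:**
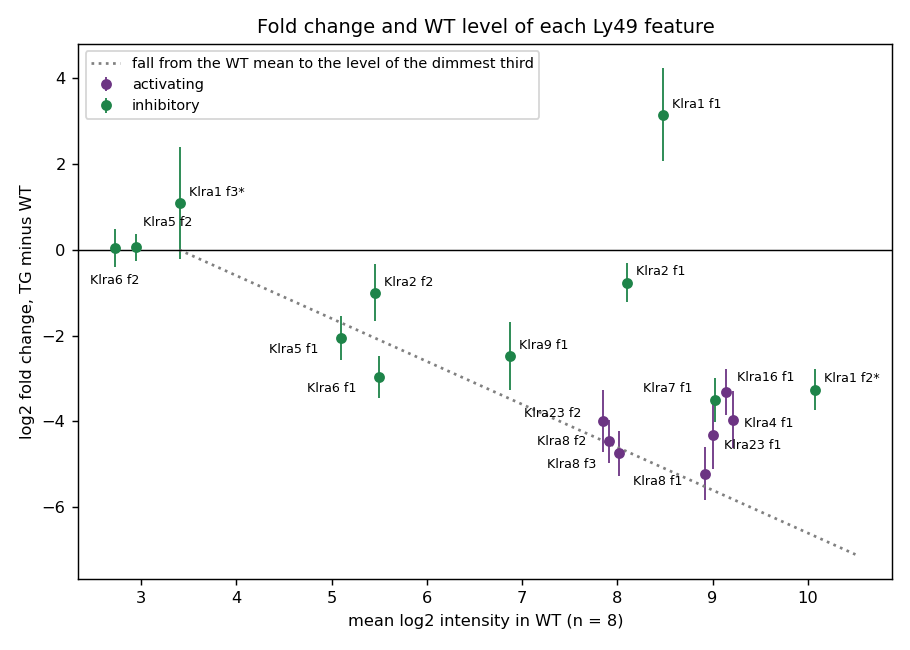
Log2 fold change of TG against WT with its 95% interval (y axis) and mean log2 intensity in 8 WT mice (x axis) for each Ly49 feature, with a dotted line for a fall from the WT mean to the level that bounds the dimmest 33.3% of all features. The Klra8 features lie on or near the line, Klra7, Klra4 and Klra16 above it, and Klra2 and the first Klra1 feature far above it.

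WT mice kept a similar order on the features that fell and were bright in WT mice, apart from that of Klra2. This was seen over the 36 pairs of the 9 lower features above 7 in WT mice other than that of Klra2. The pairs correlated at r = 0.72 to 0.98 across the 8 WT mice, with a median of 0.91. Across the 8 TG mice r was -0.58 to 0.83, with a median of 0.34. On the Klra8 features 3, 4 and 4 TG mice were under 3.40, and on those of Klra23 1 and 2. Features may also share transcripts. What either did to these correlations was not tested. The first Klra2 feature, which is also lower and above 7, correlated with these 9 at only 0.0066 to 0.57 across WT mice. Among the lower features under 7 in WT mice, Klra9 correlated with the 9 at 0.64 to 0.85 across WT mice. The first Klra6 feature did so at 0.21 to 0.73, and the first Klra5 feature at -0.014 to 0.56. WT female 2 was the highest WT mouse on 12 of the 18 features, and WT female 4 the lowest on 7. In TG mice no animal was the highest on more than 4.

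Other genes of NK cells were lower in the same lungs. Of 12 features of 8 NK cell markers, 9 were lower and 1 higher, with a median log2 fold change of -2.43 over the brightest feature of each gene. Their summed level on the log2 scale, over the same features, spanned 12.68 to 13.51 in WT mice and 8.32 to 9.56 in TG mice. This sum was mostly Gzma in WT mice, where it alone spanned 12.18 to 13.10. Gzma fell by 6.09 on the log2 scale, Ncr1 by 3.11 and the granule gene Nkg7 by 2.55, while the integrin gene Itga2 rose by 0.59 (adjusted p = 0.0340, limma) and both features of Eomes, a transcription factor of NK cells, did not pass. Against 3.96% of all features lower, T cell markers were lower on 1 of 12 features and B cell markers on 1 of 6. Markers of macrophages and monocytes, the cells in which Klra2 is known, were lower on 5 of 13. These were Marco at -2.67, every Cd68 feature, at -1.75 to -0.76, and the brighter Csf1r feature at -0.37. The other 8 did not pass, and ran from -0.70 for the dimmer Lyz2 feature to 0.22 for the brighter Itgam feature. The part that the NK cell markers' fall has in that of the Ly49 features was not tested.

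The partners of the receptors had smaller log2 fold changes than most of the receptors themselves. For the counts below, 3.96% of all features of the array were lower and 4.85% higher. Tyrobp, which encodes DAP12 and is also used by myeloid cells, fell by 1.36 on the log2 scale (adjusted p = 0.00151, limma), and 3 of 4 features of Hcst, which encodes DAP10, were lower by 0.64 to 0.81. None of the features of the kinases Syk and Zap70 passed, and the fifth lower feature among the 13 of this list, which also holds the exchange factor Vav1, was that of the phospholipase Plcg2, at -0.64. Of 7 features of the phosphatases that inhibitory receptors recruit, 3 of Ptpn6 (SHP-1) were lower, by 1.06 to 1.16, 1 of Ptpn11 (SHP-2) was higher by 0.69, and 3 did not pass. The MHC class I ligands were lower on 3 of 5 features, both of B2m, the light chain, at -0.90 and -0.98 and 1 of H2-K1 at -0.47, while H2-D1 was at -0.53 (adjusted p = 0.282, limma). Of the 2 further Ly49 genes with a feature, Klra10 was lower by 0.82 (adjusted p = 0.0119, limma), and both features of Klra17, at -0.77 and -0.40, did not pass. Klra10 was dim, with a WT mean of 3.83 and all 8 TG mice under 3.40, which left little room for a fall. The second Klra17 feature was dim as well, with a WT mean of 3.90.

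RefSeq promoters (GRCm38.p6) were given for 8 of the 10 members, all on the minus strand of chromosome 6. The 11 letters GCAATTTCCTC, found by looking for a word that at least 6 members share, occurred in the 250 bases before the start of Klra2, Klra4, Klra5, Klra6, Klra8 and Klra9, and in 0.0548% of 32851 promoters when both strands were searched. Its count among the members was fixed by the search and is no result. The stretches below are shown to print sequence of activating and inhibitory genes side by side, with capitals for the bases that match it, and Klra7 and Klra1 at their best match, with 1 and 4 mismatches.
Klra8, activating, chr6:130129943-130129992: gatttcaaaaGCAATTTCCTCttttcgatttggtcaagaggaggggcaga
Klra4, activating, chr6:130067315-130067364: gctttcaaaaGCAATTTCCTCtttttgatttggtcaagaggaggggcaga
Klra7, inhibitory, chr6:130233376-130233425: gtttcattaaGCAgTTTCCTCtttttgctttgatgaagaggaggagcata
Klra6, inhibitory, chr6:130027038-130027087: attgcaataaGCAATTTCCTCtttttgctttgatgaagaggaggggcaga
Klra9, inhibitory, chr6:130193115-130193164: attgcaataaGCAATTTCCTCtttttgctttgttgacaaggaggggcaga
Klra5, inhibitory, chr6:129913279-129913328: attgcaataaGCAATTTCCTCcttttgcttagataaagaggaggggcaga
Klra2, inhibitory, chr6:131247398-131247447: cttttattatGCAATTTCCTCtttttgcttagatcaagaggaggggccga
Klra1, inhibitory, chr6:130386935-130386984: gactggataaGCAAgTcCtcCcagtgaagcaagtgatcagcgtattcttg
Klra8, with the furthest fall, and Klra2, with little change, both carried the word, but the search itself required at least 6 members to share it. Its presence is therefore not read against the falls. The word also occurred before the start of the family genes Klra3 and Klra17, which are not among the members. The letters TGANTCA, which AP-1 factors such as Fra-2 are known to bind, occurred in these windows of 0 of the 8 members and in 6.75% of all promoters, and the RUNX letters TGTGGT in 1 member, Klra1, and in 14.0% of all promoters. A match or its lack in these windows is a description of the letters alone.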

How the data were processed

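RNA from 16 lungs was hybridised to single-colour Agilent mouse arrays. Background correction and quantile normalization were done by the authors in limma, and log2 values were deposited for every feature and array. No source used here gives limma's version there, the background method or a build. The label is Cy3 in the sample records and Cy5 in the paper's methods. The table held no detection flags, and its number of arrays limits the precision. Sorted values of the arrays differed by at most 0.00707, and values ran from 1.77 to 16.0. Symbols came from the platform annotation (43941 features) and were updated through a RefSeq gene table of GRCm38.p6, which also ties Klra22 to Klra1.

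All 62976 features were fitted with limma 3.58.1 under R 4.3.3 (lmFit, contrasts.fit, eBayes), with a mean for each of the 4 groups and Benjamini-Hochberg adjustment over all features at 0.05. The same fit gave each sex and their difference. It was tested on simulated data first. Every feature of the members was reported, with the 5 features of other genes most correlated with each Klra1 feature and the brightest Klra8 feature, and up to 4 named genes of each marker and partner list. The members and lists were chosen with earlier results of these data known. Alternatives were other models, filters, normalizations, thresholds and tests, each sex alone, 1 value per gene, and leaving out arrays. Python 3.11.15 with matplotlib 3.10.9 drew the figures.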

Additional observations from a re-analysis of the deposited data

Results flagged for a closer look

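In 3 of the 36 groups of 8 mice (18 features in each genotype), 1 mouse lay farther from the rest than Dixon's test allows, which chance does in about 1 group in 20. On the first Klra1 feature, WT male 1 was at 10.89, and the nearest WT mouse at 8.67. On the first Klra23 feature, WT female 2 was at 10.003, and the nearest WT mouse at 9.16. On the second Klra6 feature, TG female 3 was at 4.04, and the nearest TG mouse at 3.04.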

How the results depend on the processing

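No called feature changed direction under the alternatives tried, and 14 of the 18 features stayed on their side of the threshold in all of them (limma). The median log2 fold change of the inhibitory receptors was -2.06 without the dimmest 33.3% of features, -1.74 without the dimmest 50% and -2.27 with the brightest feature of each gene, which leave out dim features. That of the activating receptors was -3.68 without the 3 arrays that stood apart. The count of higher features was 0 with males alone and 0 with the mean of all features of each gene, where Klra1 was at 0.32 (adjusted p = 0.645). With the first Klra1 feature left out, a choice made after seeing the data, the count of higher features was 0 and the inhibitory median -1.53. Leaving out 1 mouse at a time gave 12 to 14 lower features, 1 to 1 higher, and medians of -4.52 to -4.05 for activating and -1.19 to -0.85 for inhibitory receptors. The first Klra2 feature lost its call in 18 of 34 alternatives (adjusted p up to 0.502), the second gained one in 6 of 32, and the first Klra5 feature lost it with males alone (-2.03, adjusted p = 0.102). With the replicate number as a block, 12 features were lower and 1 higher. Deviations of same-numbered mice correlated at r of -0.0481 to 0.117 over 8 pairs, and those of other pairs at -0.0820 to 0.0737. Of 8 WT mice, 2 correlated best with the TG mouse of their number. The main fit did not pair mice by number, although low correlations cannot exclude that same-numbered mice were matched. Dim features and values under 3.40 limit what falls can be measured.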
